A study of Mus musculus with 8 samples.

Results

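Many tissues adjust hormone action inside the cell that receives the hormone. 11β-hydroxysteroid dehydrogenase type 1, encoded by Hsd11b1, regenerates active corticosterone from its inactive 11-keto form. The type 2 deiodinase, encoded by Dio2, converts the prohormone thyroxine to triiodothyronine. The 20α-hydroxysteroid dehydrogenase encoded by Akr1c18 inactivates progesterone. The products of the first pair act on nuclear receptors, the glucocorticoid receptor (Nr3c1) and the thyroid hormone receptors (Thra, Thrb). Esr1 encodes oestrogen receptor alpha. Fkbp5 encodes a co-chaperone that binds the glucocorticoid receptor complex and is itself a well-known glucocorticoid target. These 8 genes of local steroid and thyroid hormone handling, of 32285 genes measured, are described here across the cell classes of the mouse ascending thoracic aorta. They were chosen on their UMI sums per cell class (UMIs are counted molecules), so their levels by class are a description and carry no test.

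The tissue came from wild-type mice of 11, 12 and 13 weeks, and the labels used here give no strain or treatment and no other group. After enzymatic digestion and removal of dead cells, the suspension was measured by droplet 3' RNA sequencing with hashtag antibodies, 3 hashtags in all, each assigned to 1 age. The series lists 3 animals, so a hashtag is read as 1 animal, and the 3 hashtag samples are the replicates. The matrix holds 48467 barcodes and 166848700 gene UMIs. 9939 barcodes had at least 500 genes, at most 20% mitochondrial UMIs and under 10 haemoglobin UMIs. Of those with enough genes, 17536 failed on mitochondrial UMIs and 17650 others on haemoglobin.

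4 classes were gated on a few markers, and barcodes in 2 groups (426) were dropped. Fibroblasts (Dcn at least 0.3% of UMIs) were split into 938 barcodes with a UMI of Pi16, an adventitial fibroblast marker, and 457 without one. The other classes were 699 endothelial barcodes (at least 3 UMIs of Pecam1, Cdh5 and Gpihbp1), 74 macrophage barcodes (at least 3 UMIs of C1qa, C1qb and C1qc) and 6722 smooth muscle cell (SMC) barcodes (Acta2, Tagln and Myh11 at least 1.5% of UMIs). Median UMIs per barcode were 4831, 4068, 2599, 3044.5 and 7315.5 in that order. Marker genes not used for the gates went with the labels. Lum stood at 1280 and 1943 CPM (UMIs scaled to a sum of 1e6 gene UMIs) in the Pi16-detected and Pi16-not-detected fibroblasts against 19.7 CPM in SMCs, Kdr at 967 CPM in endothelial barcodes, Csf1r at 1043 CPM in macrophages and Cnn1 at 1438 CPM in SMCs. At the gates, 53 fibroblast barcodes lay at the threshold and 102 passing barcodes just below it, and for SMCs these numbers were 620 and 338. The mesothelial list (Upk3b, Msln, Lrrn4, Upk1b, Wt1) summed to 26.0 CPM in Pi16-detected and 409 CPM in Pi16-not-detected fibroblasts, against 3.97 CPM in SMCs. Only 2690 of the 9939 barcodes carried a single hashtag, and 5958 carried none. Of the fibroblasts, 121, 74 and 88 barcodes were assigned to hashtags 1, 2 and 3, and 969 had no hashtag. Levels per hashtag rest on the assigned barcodes, and pooled levels on all of a class; intervals of pooled levels are exact Poisson intervals and cover counting error alone.

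The promoters of the 3 enzyme genes are shown because the enzymes carry the fibroblast pattern described next. Each window runs from 250 bases before to 50 after a RefSeq start (assembly GRCm38.p6, the build named mm10 in the submitters' notes), 5' to 3' on the gene's minus strand. Capitals mark matches to the letters searched on both strands, except the TATA box, which was searched on the gene's strand only. These were the glucocorticoid half-site TGTTCT and the AGGTCA half-site of thyroid hormone and oestrogen receptors, the palindromes of each with 3 free bases between, which contain the half-sites, the cyclic AMP response element TGACGTCA, the C/EBP palindrome TTGCGCAA, and the TATA box TATAAA.
Dio2, chr12:90738989-90739288: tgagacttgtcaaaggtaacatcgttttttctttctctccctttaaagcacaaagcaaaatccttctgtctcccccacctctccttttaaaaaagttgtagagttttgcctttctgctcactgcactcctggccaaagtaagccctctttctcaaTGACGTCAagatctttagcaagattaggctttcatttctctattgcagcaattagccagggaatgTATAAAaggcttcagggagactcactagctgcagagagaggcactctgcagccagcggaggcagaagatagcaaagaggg
Hsd11b1, chr1:193242311-193242610: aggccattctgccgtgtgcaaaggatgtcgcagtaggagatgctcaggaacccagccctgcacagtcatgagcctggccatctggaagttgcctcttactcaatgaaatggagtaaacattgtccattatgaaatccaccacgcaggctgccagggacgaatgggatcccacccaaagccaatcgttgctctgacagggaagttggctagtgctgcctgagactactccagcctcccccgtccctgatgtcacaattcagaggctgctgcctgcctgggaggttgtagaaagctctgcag
Akr1c18, chr13:4150597-4150896: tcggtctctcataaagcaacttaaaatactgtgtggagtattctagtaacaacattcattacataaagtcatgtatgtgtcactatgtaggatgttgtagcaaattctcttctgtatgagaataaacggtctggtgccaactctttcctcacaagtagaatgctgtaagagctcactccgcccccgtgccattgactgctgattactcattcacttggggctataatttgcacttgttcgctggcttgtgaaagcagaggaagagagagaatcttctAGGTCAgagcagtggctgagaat
The Dio2 window holds a cyclic AMP response element beginning at position -95 from the start and a TATA box at -30. These letters occur in 1.79% and 8.32% of 32851 RefSeq promoter windows. The Akr1c18 window holds AGGTCA at position 28, a match found in 16.3% of windows. The Hsd11b1 window holds none of the letters; it lies at a start inside the gene, whose span runs over chr1:193221640-193264045. Windows of Nr3c1 and Thra were not in the table.

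Among the 5 gated classes, Hsd11b1 was highest in fibroblasts. Its level per hashtag was 65.4, 50.9 and 62.8 CPM in Pi16-detected fibroblasts and 102, 69.0 and 97.4 CPM in Pi16-not-detected fibroblasts. It was 11.4, 1.93 and 1.5 CPM in endothelial barcodes, 0 in the macrophages of all 3 hashtags, and 4.42, 2.01 and 1.36 CPM in SMCs. Both fibroblast classes lay above the other classes in every hashtag, and the Pi16-not-detected values lay above the Pi16-detected ones without overlap. That gap was narrow, since the nearest values were 69.0 CPM (10 UMIs) and 65.4 CPM (27 UMIs). Endothelial and SMC values overlapped. Over all barcodes of a class, 477 UMIs gave 100 CPM (interval 91.2 to 109) in Pi16-detected fibroblasts and 249 UMIs gave 125 CPM (110 to 141) in Pi16-not-detected ones. In endothelial barcodes 9 UMIs gave 3.70 CPM, and in SMCs 68 UMIs gave 1.36 CPM. All fibroblasts together stood 78.7-fold above SMCs on this pooled CPM scale. The size of this ratio depended on the barcodes used: after adding 1 CPM to both levels it was 5.52 on the log2 scale, against 4.28 with single-hashtag barcodes only and 4.04 with no haemoglobin filter. The 0 UMIs in 74 macrophages allow a level of up to 11.8 CPM. Pooled fibroblast levels (107 CPM) were above the mean over hashtags (69.3 ± 10.3 CPM, SD, n = 3), so hashtag-assigned fibroblasts were lower in Hsd11b1 than fibroblasts as a whole; the part of hashtag assignment in this was not tested.

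Dio2 shared the fibroblast pattern. Its level was 55.7, 46.6 and 41.9 CPM in Pi16-detected fibroblasts of hashtags 1 to 3 and 53.3, 55.2 and 22.5 CPM in Pi16-not-detected ones, and these ranges overlapped. Endothelial barcodes had 1.62, 19.3 and 1.5 CPM, macrophages 0, 0 and 10.9 CPM (1 UMI), and SMCs 2.21, 0.669 and 1.09 CPM. Every fibroblast value lay above every value of the other classes. That gap was narrow and rested on few molecules. The nearest values were 22.5 CPM (3 UMIs) in Pi16-not-detected fibroblasts of hashtag 3 and 19.3 CPM (10 UMIs) in endothelial barcodes. 10 of the 14 endothelial UMIs came from hashtag 2. Pooled, both fibroblast classes stood at 64.8 CPM and SMCs at 1.04 CPM, a 62.1-fold ratio for all fibroblasts. On the same log2 scale that ratio was 5.01, against 4.34 with single-hashtag barcodes only and 3.69 with no haemoglobin filter. Type 2 deiodinase is a textbook enzyme of brown fat, which surrounds this vessel; of the brown adipocyte list, Ucp1 stood at 2.52 and 3.51 CPM in the Pi16-detected and Pi16-not-detected fibroblasts, and Adipoq at 0.419 and 0 CPM. The whole list of 5 brown adipocyte genes summed to 9.64 and 19.6 CPM in these classes against 11.8 CPM in SMCs, and 149 CPM in endothelial barcodes. Outside the gated classes, the 1 barcode with brown adipocyte markers held 1 Dio2 UMI. The part of brown adipocyte RNA in the Dio2 levels was not tested. Dio2 overlaps the long non-coding gene Gm26512 on chromosome 12, and reads of overlapping genes cannot be fully told apart.

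Akr1c18 differed from both: among the gated classes it was highest in Pi16-detected fibroblasts. It had 94.5, 72.0 and 129 CPM in Pi16-detected fibroblasts and 43.6, 0 and 0 CPM in Pi16-not-detected ones. Endothelial and macrophage barcodes had 0 UMIs in every hashtag, and SMCs had 0.737, 0 and 0.544 CPM. Pi16-detected values did not overlap those of any other class. Pooled, 553 UMIs gave 116 CPM (interval 106 to 126) in Pi16-detected fibroblasts against 10 UMIs and 5.02 CPM (2.41 to 9.23) in Pi16-not-detected ones, a 23.1-fold ratio. 9 of those 10 UMIs came from hashtag 1. The 0 UMIs in 699 endothelial barcodes allow up to 1.23 CPM. Akr1c18 has close paralogues, among which reads can be shared: Akr1c14, a 3α-hydroxysteroid dehydrogenase, stood at 28.3, 10.5 and 17.9 CPM in Pi16-detected fibroblasts, Pi16-not-detected fibroblasts and SMCs, while Akr1c6, Akr1c20 and Akr1c21 had 0 UMIs in the 5 classes.

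**Figure D1:**
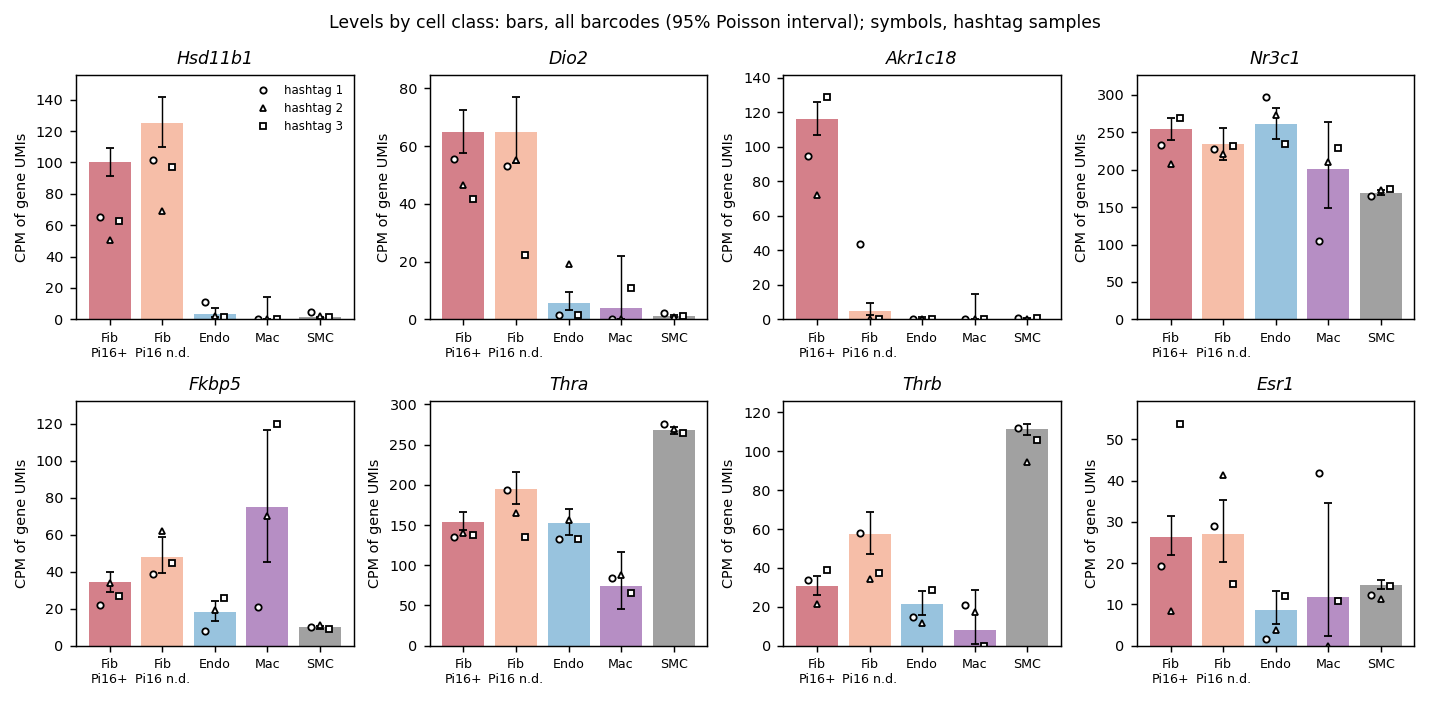
Levels of the 8 genes (y axis, CPM of gene UMIs, linear from 0) in 5 cell classes (x axis; Fib, fibroblast; n.d., not detected; Endo, endothelial; Mac, macrophage). Bars are all barcodes of a class with 95% Poisson intervals and symbols are the 3 hashtag samples. Hsd11b1, Dio2 and Akr1c18 stand high in fibroblast classes, Thra and Thrb highest in SMCs, and Nr3c1 is spread over all classes.

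The receptors were less restricted. Nr3c1 was detected in every class, at 233, 208 and 269 CPM per hashtag in Pi16-detected fibroblasts and 228, 221 and 232 CPM in Pi16-not-detected ones. It had 297, 273 and 234 CPM in endothelial barcodes, 105, 210 and 229 CPM in macrophages, and 165, 173 and 175 CPM in SMCs. The ranges of fibroblast and endothelial values overlapped, as did those of macrophages and SMCs; the SMC values lay below all fibroblast and endothelial ones. All fibroblasts pooled stood 1.47-fold above SMCs. The related mineralocorticoid receptor gene Nr3c2 stood at 12.6 and 18.6 CPM in Pi16-detected and Pi16-not-detected fibroblasts and 20.7 CPM in SMCs.

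Thra and Thrb ran the other way and were highest in SMCs among the 5 classes. Thra had 136, 140 and 138 CPM in Pi16-detected fibroblasts, 194, 165 and 135 CPM in Pi16-not-detected ones and 133, 157 and 132 CPM in endothelial barcodes. Macrophages had 83.8, 87.4 and 65.5 CPM and SMCs 276, 270 and 264 CPM. The SMC values overlapped no other class and the macrophage values lay below all others; the 3 classes between overlapped. Thrb had 33.9, 21.2 and 38.9 CPM in Pi16-detected and 58.1, 34.5 and 37.5 CPM in Pi16-not-detected fibroblasts. It had 14.6, 11.6 and 28.6 CPM in endothelial barcodes, 20.9, 17.5 and 0 CPM in macrophages (2 UMIs in all) and 112, 94.4 and 106 CPM in SMCs. Again only the SMC values stood clear of those of the other 4 classes. Outside the gated classes, 217 barcodes with pericyte markers had Thra at 233 CPM and Thrb at 123 CPM. Pooled, SMCs stood 1.61-fold above fibroblasts for Thra and 2.89-fold for Thrb. The 3' end of Thra overlaps Nr1d1, a clock repressor gene on the opposite strand, by 1075 bases of chromosome 11; Nr1d1 stood at 35.6 and 73.3 CPM in Pi16-detected and Pi16-not-detected fibroblasts and 104 CPM in SMCs, and no source used here says whether strand was used in counting.

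Esr1 was low in all classes. Its level was 19.4, 8.48 and 53.8 CPM in Pi16-detected fibroblasts, 29.0, 41.4 and 15.0 CPM in Pi16-not-detected ones, 1.62, 3.87 and 12.0 CPM in endothelial barcodes, 41.9, 0 and 10.9 CPM in macrophages (3 UMIs) and 12.3, 11.4 and 14.4 CPM in SMCs. No pair of neighbours in the order of levels was free of overlap. The second oestrogen receptor gene, Esr2, had 0 UMIs in the 5 classes. The progesterone receptor gene Pgr stood at 3.56 and 5.02 CPM in Pi16-detected and Pi16-not-detected fibroblasts against 35.0 CPM in SMCs.

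Fkbp5 was higher in fibroblasts than in SMCs in every hashtag. Pi16-detected fibroblasts had 21.8, 33.9 and 26.9 CPM, Pi16-not-detected ones 38.7, 62.1 and 44.9 CPM and SMCs 10.1, 11.0 and 8.97 CPM. Endothelial barcodes had 8.11, 19.3 and 25.6 CPM and overlapped SMCs. Of the 5 classes, the highest pooled level was in macrophages (74.8 CPM, interval 45.0 to 117), but from 19 UMIs that gave 20.9, 70.0 and 120 CPM per hashtag, a range that overlapped the fibroblasts.

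Shares of barcodes with a UMI were taken after each barcode was thinned to 2000 UMIs, so that depth is equal. Hsd11b1 and Dio2 were detected most often in the fibroblast classes, and Akr1c18 in Pi16-detected fibroblasts. Hsd11b1 was detected in 15.7% (exact binomial interval 13.4 to 18.3) of 877 Pi16-detected fibroblasts and 18.6% (14.9 to 22.6) of 415 Pi16-not-detected ones, against 0.183% of 547 endothelial and 0.210% of 6658 SMC barcodes. Without thinning these shares were 24.2%, 27.8%, 0.858% and 0.699%. The endothelial share, from 1 barcode after thinning, lay below that of SMCs only in the thinned counts. Endothelial and SMC barcodes, with median depths of 2599 and 7315.5 UMIs before thinning, serve here as the low reference. The part of free RNA in their counts was not tested. Dio2 was detected in 9.12% and 10.1% of thinned Pi16-detected and Pi16-not-detected fibroblasts against 0.225% of SMCs, and Akr1c18 in 8.44% and 0.241% against 0.0751%. Without thinning these shares were 15.0%, 13.3% and 0.655% for Dio2 and 12.4%, 0.438% and 0.223% for Akr1c18. Thra was detected in 41.4% and Thrb in 19.6% of thinned SMCs.

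The 3 enzyme transcripts were spread over fibroblasts in different ways. Of 1395 fibroblast barcodes, 354 (25.4%) held Hsd11b1, 202 (14.5%) Dio2 and 118 (8.46%) Akr1c18. Akr1c18 was concentrated: 38 barcodes with at least 5 UMIs held 72.6% of its 563 UMIs, and 1 barcode held 57. For Hsd11b1 and Dio2, barcodes with at least 5 UMIs held 27.7% and 28.8%, with maxima of 15 and 12 UMIs. Barcodes with Akr1c18 were also deeper, with a median of 6720 UMIs against 4374 in the other fibroblasts. For Hsd11b1 the medians were 4699.5 UMIs with it and 4446 UMIs without.

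**Figure D2:**
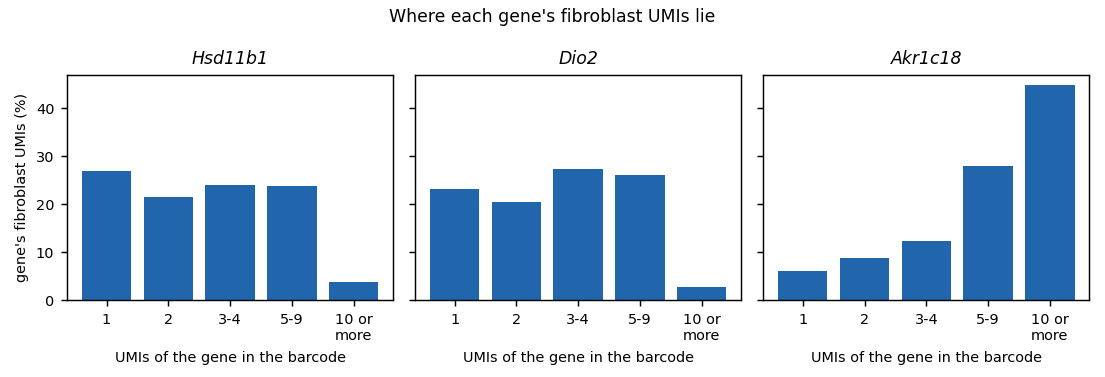
Share of each gene's fibroblast UMIs (y axis, percent) by how many UMIs of the gene the barcode holds (x axis). Barcodes with 10 or more UMIs hold 44.8% of the Akr1c18 UMIs, against 3.86% for Hsd11b1 and 2.74% for Dio2.

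Within Pi16-detected fibroblasts thinned to equal depth, Dio2 was detected in 26 of 138 barcodes with Hsd11b1 (18.8%) and 54 of 739 without it (7.31%). Akr1c18 went the opposite way, detected in 2 of the 138 barcodes with Hsd11b1 (1.45%) and 72 of the 739 without it (9.74%). Among Pi16-not-detected fibroblasts, Dio2 was detected in 12 of 77 barcodes with Hsd11b1 (15.6%) and 30 of 338 without it (8.88%). These are counts over pooled barcodes of 1 suspension, which are not replicates, and their intervals cover counting error only.

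**Figure D3:**
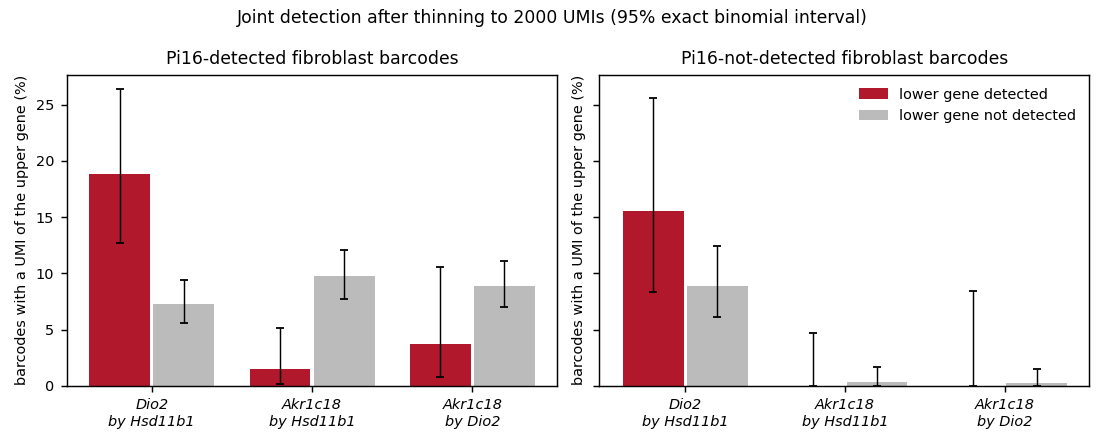
Share of fibroblast barcodes with a UMI of the upper-named gene (y axis, percent; 95% exact binomial interval, counting error only), for barcodes in which the lower-named gene was detected (red) or not (grey), after thinning to 2000 UMIs. In Pi16-detected fibroblasts Dio2 stands at 18.8% against 7.31% by Hsd11b1, and Akr1c18 at 1.45% against 9.74%.

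Whether these genes vary together within fibroblasts was tested over animals, by a division that the choice of genes did not use. Each sum holds both Pi16 classes, with no term for Pi16 in the fit. The choice of genes kept these classes apart and Akr1c18 differs between them, so its result is not fully separate from that choice. Fibroblasts of each hashtag were divided into those with an Hsd11b1 UMI (23, 15 and 24 barcodes) and those without one (98, 59 and 64), summed, and compared by edgeR's quasi-likelihood test with the hashtag as a block. Median UMIs per barcode were 4390, 5081 and 4561 in the Hsd11b1-detected sums against 4934.5, 4164 and 4518.5 in the others. Of 3185 genes tested, 122 passed an adjusted p under 0.05, a background of 3.83% (1.92% higher and 1.92% lower).

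Dio2 was higher in Hsd11b1-detected fibroblasts. It stood at 203, 164 and 140 CPM (TMM-scaled, as are all levels beside edgeR tests) in Hsd11b1-detected fibroblasts of hashtags 1 to 3, against 33.8, 33.3 and 9.86 CPM in the others. The groups did not overlap in these 3 animals, and the difference was 2.73 ± 0.41 on the log2 scale (SE; edgeR adjusted p = 2.3e-08; 43 and 27 UMIs). The UMIs came from 17 of 62 Hsd11b1-detected barcodes and 17 of 221 others. Dio2 met the filter on low counts through the Hsd11b1-detected sums, where it is high; with no such filter the difference was 2.59 on the log2 scale (edgeR adjusted p = 1.5e-07). Over all fibroblasts, hashtag or not, the levels were 132 CPM with Hsd11b1 and 41.8 CPM without, a ratio of 3.16 (2.61 to 3.83, counting error only).

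Akr1c18 was lower in Hsd11b1-detected fibroblasts, on fewer molecules. It had 0, 0 and 19.9 CPM in Hsd11b1-detected fibroblasts against 108, 62.9 and 135 CPM in the others. That is 2 UMIs from 1 barcode against 106 UMIs from 24 barcodes, a ratio of CPM of 0.0734 (counting interval 0.00878 to 0.272). The groups did not overlap, and the edgeR difference was -3.70 ± 0.66 on the log2 scale (adjusted p = 5.8e-06). Akr1c18 met the filter on low counts through the Hsd11b1-not-detected sums, where it is high; with no such filter the difference was -3.82 (edgeR adjusted p = 1.0e-05). The call was lost without replicate 1 (adjusted p = 0.053), with DESeq2 (0.12) and without the haemoglobin filter, where the difference was -0.85 (edgeR adjusted p = 0.54). Over all fibroblasts the levels were 27.9 and 102 CPM, a ratio of 0.273 (0.199 to 0.368). The Hsd11b1-not-detected fibroblasts hold the barcodes with mesothelial markers: Upk3b, Msln and Muc16 had 0 UMIs in the Hsd11b1-detected sums. Without the 36 fibroblast barcodes that held at least 3 mesothelial marker UMIs, none of which had any Hsd11b1, Dio2 or Akr1c18, the differences were 2.55 for Dio2 and -3.86 for Akr1c18.

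The receptors Nr3c1 and Thra did not pass in this comparison. Nr3c1 had 182, 343 and 279 CPM in Hsd11b1-detected fibroblasts and 284, 222 and 306 CPM in the others (log2 difference -0.07 ± 0.26), and Thra 203, 180 and 150 CPM against 174, 170 and 161 CPM (0.07 ± 0.29; edgeR adjusted p = 0.95 for both). Values overlapped for both genes. Fkbp5, Thrb and Esr1 had too few UMIs for the test. Of 40 other pathway genes tested, 1 was higher and 2 were lower in Hsd11b1-detected fibroblasts. Cxcl12, a chemokine gene that oestrogen induces in some cells, had 1422, 801 and 848 CPM against 605, 355 and 434 CPM (1.13 ± 0.18 on the log2 scale, edgeR adjusted p = 4.1e-07). The glucocorticoid-inducible genes Dusp1, a MAP kinase phosphatase, and Anxa1, an anti-inflammatory annexin, fell by 1.16 ± 0.33 and 0.86 ± 0.23 on the log2 scale (edgeR adjusted p = 0.016 and 0.009). Dusp1 lost its call without replicate 1 (0.34) or 3 (0.27), and Anxa1 without replicate 1 (0.29) or 2 (0.081). H6pd, which supplies the cofactor that 11β-hydroxysteroid dehydrogenase type 1 uses, had 64.1, 81.8 and 59.8 CPM against 38.4, 44.4 and 42.7 CPM (0.69 ± 0.50) and did not pass (edgeR adjusted p = 0.62).

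**Figure D4:**
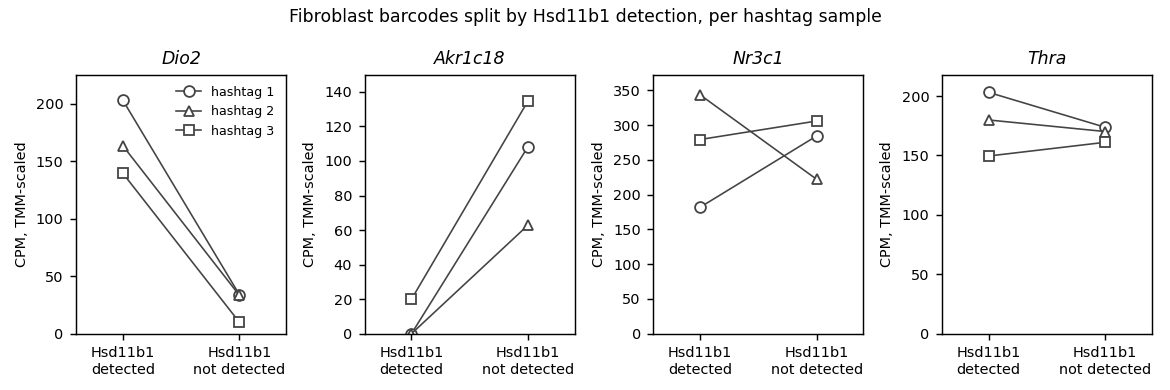
TMM-scaled CPM (y axis) of 4 genes in fibroblasts with an Hsd11b1 UMI (left) and without one (right); each line joins the 2 sums of 1 hashtag sample. Dio2 is higher with Hsd11b1 in all 3 samples, Akr1c18 is lower in all 3, and Nr3c1 and Thra overlap.

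Divisions of the other classes bore on the receptors. The choice of genes did not use the SMC division. The endothelial division is not fully separate from that choice, since Gpihbp1 is a gene of the endothelial gate. Barcodes with Vwf and no Gpihbp1 met that gate on Pecam1 and Cdh5 alone. Within SMCs, barcodes with a Pln UMI and none of Tnnt2 were set against the reverse (58, 47 and 58 against 130, 98 and 104 barcodes). 62 of 6335 genes passed, a background of 0.979%. Nr3c1 had 143, 135 and 220 CPM in Pln-detected SMCs and 181, 198 and 175 CPM in Tnnt2-detected ones (-0.15 ± 0.14 on the log2 scale). Thra and Thrb differed by -0.08 and 0.14, and none of the 3 passed (edgeR adjusted p = 0.85, 0.93 and 0.88). Of 56 other pathway genes 2 passed. In the thyroid hormone target list Dbp, a clock output gene, stood at 62.4, 50.1 and 77.8 CPM against 22.1, 30.4 and 32.2 CPM (1.20 ± 0.24, edgeR adjusted p = 0.00027). That call was lost without replicate 1 (0.11) or 3 (0.056). Dusp1 was the other (0.43 ± 0.12, edgeR adjusted p = 0.044), with the same direction in 2 of 3 hashtags.

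Within endothelial barcodes, those with a UMI of Gpihbp1, a capillary lipase anchor, and none of Vwf were set against the reverse (189, 109 and 144 against 14, 13 and 23 barcodes). 892 of 3802 genes passed, a background of 23.5% (11.1% higher and 12.4% lower). Nr3c1 was 333 ± 26.5 CPM in Gpihbp1-detected and 191 ± 49.0 CPM in Vwf-detected barcodes (SD, n = 3 each), higher in all 3 hashtags by 0.82 ± 0.25 on the log2 scale (edgeR adjusted p = 0.025). This call was lost without replicate 2 (0.11) or 3 (0.093), after thinning (0.27) and with DESeq2 (0.23). Thra was 143 ± 14.3 CPM against 215 ± 36.3 CPM (-0.59 ± 0.27) and did not pass (edgeR adjusted p = 0.14), although it passed without the haemoglobin filter (0.013) and with the other hashtag caller (0.027). The Gpihbp1-detected barcodes were shallower, with medians of 2276, 2432 and 2702 UMIs against 4657, 4215 and 4240 UMIs in the Vwf-detected ones. Of 44 other pathway genes, 13 were higher and 7 lower in Gpihbp1-detected barcodes. The glucocorticoid-inducible kinase gene Sgk1 stood at 796 ± 59.2 CPM against 235 ± 78.5 CPM (1.76 ± 0.23, edgeR adjusted p = 2.0e-05), and Cyp1b1, an oestrogen-hydroxylating cytochrome, at 9.17 ± 2.33 CPM against 161 ± 36.9 CPM (-4.06 ± 0.44, edgeR adjusted p = 2.6e-06). The thyroid-responsive lipogenic gene Thrsp had 239 UMIs in Gpihbp1-detected barcodes against 1 in Vwf-detected ones. Beside it the brown adipocyte gene Ucp1 had 93 UMIs against 0, and the part of adipocyte RNA in these differences was not tested.

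The rest of the pathway was read from lists of 116 genes in the class sums of the same 3 animals. This is the contrast in which the 8 genes were chosen, so counts are given as a description beside the share of all genes. Between fibroblasts (mean of both classes) and SMCs, 65 list genes were tested; 22 were higher in fibroblasts, 19 lower and 24 did not pass, against 41.4% of all 6701 genes called (20.6% higher and 20.8% lower). The median log2 difference was 0.01 for the lists and -0.02 for all genes.

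Of the enzyme lists, glucocorticoid activation and inactivation had 3 of 3 tested genes higher in fibroblasts, thyroid hormone transport and deiodination 2 of 4 with none lower, and steroid synthesis and conversion 3 of 8 with 1 lower. H6pd stood at 46.7 ± 6.47 CPM in fibroblasts and 14.1 ± 2.03 CPM in SMCs (SD, n = 3 each; log2 difference 1.70 ± 0.29, SE; edgeR adjusted p = 5.4e-06). Cyp1b1 stood at 150 ± 37.4 CPM against 21.1 ± 1.85 CPM (2.84 ± 0.19, edgeR adjusted p = 1.0e-15). The inactivating enzyme genes Hsd11b2 and Dio3 were near absent. Hsd11b2, which inactivates corticosterone, had 6 UMIs in all fibroblasts' 6761675 and 6 in SMCs' 49861013. Dio3, which inactivates thyroid hormone, had 0 and 7. Dio1 had 0 UMIs in the 5 classes, as did Cyp17a1 and Cyp19a1 of steroid synthesis.

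Of 18 glucocorticoid receptor targets tested, 10 were higher and 4 lower in fibroblasts. Angptl4, a lipase inhibitor gene, stood at 98.3 ± 10.8 CPM in fibroblasts against 3.95 ± 1.86 CPM in SMCs, Cebpd, a transcription factor gene, at 472 ± 87.0 CPM against 82.0 ± 6.67 CPM, and Tsc22d3 (GILZ) at 61.4 ± 23.2 CPM against 12.2 ± 1.08 CPM. Their log2 differences were 4.55 ± 0.30, 2.51 ± 0.14 and 2.19 ± 0.26 (edgeR adjusted p = 8.5e-16, 6.7e-18 and 5.2e-09). Sgk1 fell to 31.1 ± 12.9 CPM in fibroblasts, against 74.0 ± 0.33 CPM in SMCs (-1.32 ± 0.25, edgeR adjusted p = 3.6e-05), and Tgm2, Zbtb16 and Dusp1 were lower too. Zbtb16 lost its call without replicate 1 (edgeR adjusted p = 0.11). Of 17 receptor chaperones and cofactors, 9 were lower in fibroblasts and 1, Nrip1, was higher. The chaperone genes Stip1 and Hspa4 fell by 1.43 ± 0.26 and 1.02 ± 0.15 on the log2 scale (edgeR adjusted p = 1.8e-05 and 3.4e-07).

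Of 11 thyroid hormone receptor partners and targets, 5 were lower in fibroblasts and 0 higher. Atp2a2, the sarcoplasmic calcium pump gene, stood at 237 ± 46.9 CPM in fibroblasts against 757 ± 23.2 CPM in SMCs (-1.69 ± 0.12, edgeR adjusted p = 1.7e-14). Me1, Dbp and Nr1d1 fell by 1.39, 1.31 and 0.96 on the log2 scale (edgeR adjusted p = 2.7e-05, 0.00079 and 3.4e-05). Of 6 genes of the sex steroid list, 4 were higher in fibroblasts, among them Igfbp4, Cxcl12 and Nrip1. Igfbp4, which encodes a binding protein of insulin-like growth factors, stood at 1618 ± 61.6 CPM in fibroblasts against 133 ± 16.1 CPM in SMCs (3.58 ± 0.13, edgeR adjusted p = 2.4e-23).

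**Figure D5:**
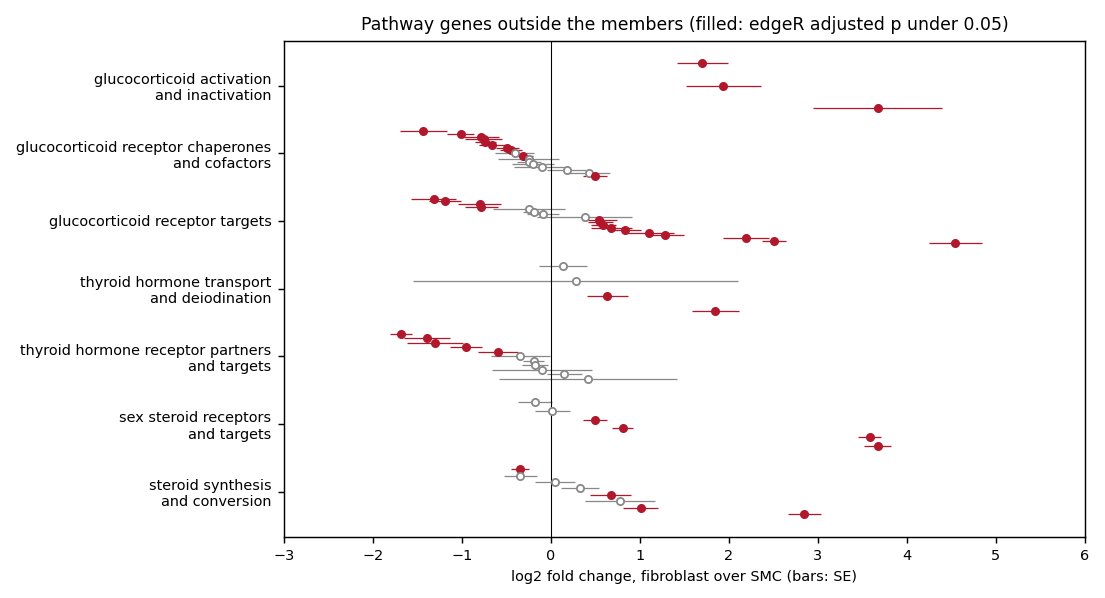
Log2 difference of fibroblasts over SMCs (x axis; bars, SE) for the tested genes of 7 pathway lists (rows; the 8 described genes are left out). Filled points passed an edgeR adjusted p under 0.05. The thyroid hormone target list has 5 filled points, all below 0, and the glucocorticoid target list 10 above and 4 below.

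Against SMCs, endothelial barcodes had 19 list genes higher and 19 lower of 65 (background 53.9%, 27.0% higher and 26.9% lower) and macrophages 13 and 17 (37.2%, 16.6% higher and 20.6% lower, with the median of all genes at -0.27 on the log2 scale). In macrophages Tsc22d3 stood at 251 ± 29.8 CPM against 12.2 ± 1.08 CPM in SMCs (4.34 ± 0.34, edgeR adjusted p = 2.2e-13). Slc7a8, an amino acid transporter gene that also carries thyroid hormone, stood at 78.0 ± 6.14 CPM against 0.252 ± 0.437 CPM. Between Pi16-detected and Pi16-not-detected fibroblasts, 5 of 65 list genes were higher and 2 lower (background 5.16%, 2.60% higher and 2.57% lower). Anxa1 stood at 573 ± 4.89 CPM in Pi16-detected against 192 ± 99.3 CPM in Pi16-not-detected fibroblasts (1.5 ± 0.20, edgeR adjusted p = 2.3e-06), and was called under each alternative run. The other 4, Errfi1, Mt1, Cebpd and Igfbp4, each lost their call under at least 5 of the alternatives. List genes higher numbered 2 without replicate 2, without the mesothelial-marker barcodes, with the stricter cell filter and with DESeq2. The 2 lower genes, Abcb1b and Tgm2, turned direction without the mesothelial-marker barcodes (log2 differences 0.42 and 0.11, against -2.04 and -1.39).

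Over the 15 sums of class and hashtag, the genes most like each of the 3 enzymes in log2(CPM + 10) were Bicc1, Igfbp6 and Pdgfrl for Hsd11b1 (Pearson r = 0.983, 0.982 and 0.979), Pdpn, Gpx3 and Cebpd for Dio2 (0.947, 0.947 and 0.934) and Larp6, Pla1a and Sfrp4 for Akr1c18 (0.983, 0.979 and 0.946). For Thra they were Pam, Vim and Tnik (0.964, 0.953 and 0.95) and for Thrb Cacna2d1, Ccn2 and Vim (0.946, 0.944 and 0.936). The sums share animals and classes, so these values describe likeness of pattern and no more. Likeness over classes need not hold within fibroblasts. There Igfbp6 was lower with Hsd11b1, at 314 ± 214 CPM in Hsd11b1-detected against 1152 ± 249 CPM in other fibroblasts (SD, n = 3 each). The log2 difference was -1.78 ± 0.21 (SE, edgeR adjusted p = 1.6e-13).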

How the data were processed

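Values used are UMI counts per gene and per hashtag, as the authors deposited them in 1 matrix of wild-type mouse ascending thoracic aorta. Per the file headers Cell Ranger 6.0.1 made it; the submitters' processing notes also list mm10 and Seurat 4.0.5, and no source used here names a gene annotation. The labels list 4 gene libraries and 4 hashtag libraries, which barcodes do not tell apart. Hashtags were called with HTODemux (Seurat 5.3.0, quantile 0.99); classes follow gates on marker UMIs, with no doublet caller run beyond dropping barcodes of 2 groups, and barcodes with several hashtags (1291) stay in pooled levels. UMIs were summed per class and hashtag (at least 10 barcodes) and tested with edgeR 4.0.16 (quasi-likelihood, TMM, filterByExpr, Benjamini-Hochberg over all genes tested, hashtag block), with DESeq2 1.42.0 as an alternative; the edgeR scripts were tested on simulated data. The hashtag pairs sums because both come from 1 animal; over 30 class pairs, deviations of same-hashtag sums correlated at -0.10 to 0.29. With 3 animals in 1 suspension, p-values rest on the spread between these samples, which edgeR moderates over all genes tested. A very small p-value therefore does not measure the spread of that gene over the 3 animals alone. The 8 genes and the lists were chosen with earlier results of these data known. Named list genes are the up to 25 with the largest change among those called in the same direction in every hashtag; genes named outside this were chosen after their values were seen. A count of 0 is given with the level that 3 counts would give. Promoters are from RefSeq (GRCm38.p6); 6 of the 8 genes had a window. 2 list genes that count among those called are not reported here by name.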

Additional observations from a re-analysis of the deposited data

How the results depend on the processing

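The pooled fibroblast to SMC log2 ratios (after adding 1 CPM to both levels) kept their direction under all alternatives run, but moved for several genes. For Hsd11b1 the ratio was 5.52, and 4.04 with no haemoglobin filter, 6.12 with doubled class thresholds, 4.93 with barcodes of 2 groups kept and 4.28 with single-hashtag barcodes only. For Dio2 it was 5.01, and 3.69, 4.52 and 4.34 with no haemoglobin filter, barcodes of 2 groups kept and single-hashtag barcodes only. For Akr1c18 it was 5.93, and 6.20 with the stricter cell filter, 4.32, 4.95 and 5.67 in the same 3 settings as Dio2, and 5.48 after thinning. Thra (-0.68) moved to -0.57, -0.62 and -0.87 in those 3 settings, Thrb (-1.51) to -1.26 with no haemoglobin filter and Fkbp5 (1.85) to 2.19 after thinning; the cause was not tested. Counts of called genes (higher and lower) moved by over 1.5 times as follows. Thinning, which leaves fewer UMIs, gave 689 and 652 for fibroblasts, 830 and 864 for endothelial barcodes and 543 and 692 for macrophages against SMCs, 70 and 45 by Pi16, 2 and 2 for Pln against Tnnt2, 162 and 145 for Gpihbp1 against Vwf, and 15 and 11 by Hsd11b1. The ratio hashtag caller gave 813 and 694 for fibroblasts, 1050 and 1000 for endothelial barcodes, 812 lower for macrophages, 9 and 10 for Pln against Tnnt2, and 100 lower by Hsd11b1. DESeq2 gave 3 and 6 for Pln against Tnnt2, 213 and 249 for Gpihbp1 against Vwf, and 17 and 7 by Hsd11b1. No filter on low counts gave 2200 lower for fibroblasts against SMCs, 694 higher for Gpihbp1 against Vwf, and 36 and 111 by Hsd11b1. The stricter cell filter gave 82 and 61 by Pi16 and 20 higher for Pln against Tnnt2, no haemoglobin filter gave 22 higher there, and doubled class thresholds gave 97 lower by Pi16 and 22 and 14 by Hsd11b1. Without mesothelial-marker barcodes, an alternative chosen after seeing the data, 92 were lower by Pi16, and Abcb1b and Tgm2 reversed there to 0.42 and 0.11; Abcb1b between fibroblasts and SMCs reversed to -0.51 with the ratio hashtag caller. Leaving out each hashtag sample in turn gave 24 to 46 higher and 23 to 48 lower genes by Hsd11b1, 100 to 141 and 68 to 151 by Pi16, 13 to 22 and 12 to 17 for Pln against Tnnt2, and 700 to 990 higher for macrophages.

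With no replicate block, the fit without the pairing of sums by animal gave 36 higher and 36 lower genes by Hsd11b1, against 61 and 61 with it; Dio2 and Akr1c18 stayed called (log2 differences 2.65 and -3.63). Dio2 was called in each of the 11 alternatives in which it could be fitted. The planned division of fibroblasts by Dio2 could not be fitted in the main setting. Of its 17, 8 and 9 barcodes per hashtag, those of hashtags 2 and 3 fell short of the minimum of 10. With no haemoglobin filter it was fitted, with 30 genes higher and 34 lower of 4088 and 0 of 49 list genes called. Doubled class thresholds gave 17 and 14 of 4410 and 0 of 51 list genes. The stricter cell filter left too few barcodes for macrophages against SMCs, Gpihbp1 against Vwf and the Hsd11b1 comparison. Fibroblast levels per hashtag rest on few UMIs (10 to 27 for Hsd11b1, 3 to 23 for Dio2, 0 to 43 for Akr1c18). This also limits what can be resolved for Esr1, Thrb and Fkbp5 within a class.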

Other observations

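Fibroblasts with Akr1c18 differed from other fibroblasts in more than this gene; the genes below were chosen after their values were seen, from pooled sums with no test. The 118 barcodes with it stood above the other 1277 in Pla1a, a phospholipase gene (503 against 75.3 CPM), Procr, the protein C receptor gene (105 against 16.2 CPM), Has1 and Ugdh, genes of hyaluronan synthesis (61.6 against 7.08 CPM and 617 against 143 CPM), and Pi16 itself (3232 against 1098 CPM). The paralogue Akr1c14 stood at 79.7 against 15.2 CPM. They stood lower in Mgp, a matrix inhibitor of calcification (2180 against 15243 CPM), Apoe (295 against 3443 CPM) and Cytl1 (10.9 against 654 CPM). Hsd11b1-detected fibroblasts showed the reverse for some of these in the edgeR comparison by hashtag: Mgp stood at 34388 ± 6033 CPM in Hsd11b1-detected against 10399 ± 907 CPM in other fibroblasts (SD, n = 3 each; 1.71 ± 0.07 on the log2 scale, edgeR adjusted p = 1.4e-76), and Cytl1 and Lum were higher as well (2.09 and 1.44).

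Barcodes in none of the 4 gated groups held Hsd11b1 UMIs too, with counting error only. 52 barcodes with T cell markers had 10 UMIs (51.9 CPM) with Dcn at 171 CPM, 14 with neutrophil markers had 3 UMIs (61.5 CPM) with Dcn at 61.5 CPM, and 217 with pericyte markers had 27 UMIs (21.3 CPM) with Dcn at 305 CPM. Dcn stood at 89.8 CPM in SMCs. The T cell barcodes also had Fkbp5 at 98.5 CPM from 19 UMIs.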
